A study of Rattus norvegicus with 35 samples.

Results

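Rat mammary tumours that make much casein mRNA were compared with tumours that make little. The 24 tumours of the series were ranked by a casein score, the mean over Csn1s1, Csn2 and Csn3 of the log2 signal, with signals under 41.6 set to that floor. The 8 highest tumours, called casein-high here, were set against the 8 lowest, called casein-low, so 16 of the 24 tumours, of 35 arrays in all, form the comparison. The 8 tumours between them are called the middle tumours. The score chose the groups, so the values of the 3 caseins are given as a description and get no test.

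The series measured total RNA on oligonucleotide arrays of the RAE230A design, 1 array per sample, in 24 mammary tumours and 11 normal mammary glands of the rat. Every tumour was frozen tissue and, by its label, had been induced with N-methyl-N-nitrosurea (NMU), which alkylates DNA. They give no strain, age, parity, hormone treatment or batch. They do not say that the samples came from separate animals, so each p-value is measured against a between-sample spread that may be technical. The casein-high tumours, from the highest score down, were X10, X6, X2, X13, X4, X18, X25R and X8. The casein-low tumours, from the highest score down, were X28, X11, X27, X17, X32, X26, X22L and X20. The normal glands took no part in the test and serve as a level to read the tumours against.

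Caseins are the main proteins of milk, made by the secretory (alveolar) luminal cells of the mammary epithelium. Prolactin binds its receptor Prlr on these cells, the kinase Jak2 phosphorylates the transcription factors Stat5a and Stat5b, and these bind sites of the form TTCNNNGAA in the promoters of milk protein genes and of feedback genes such as Cish. Secretory cells also make alpha-lactalbumin (Lalba), which together with a galactosyltransferase makes lactose, and they release fat as globules wrapped in membrane with the help of Xdh, Plin2 and butyrophilin.

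The promoters of the 3 caseins that made the score, of Lalba and of Cish are shown because all are STAT5-related or milk genes and their signals are compared below. The sequences are RefSeq's, build GRCr8, from 250 bases before to 50 bases after the annotated start, on the gene's own strand, with each TTCNNNGAA in capitals. That motif reads the same on both strands. The windows are chr14:20638800-20639099 (minus strand) for Csn1s1, chr14:20601574-20601873 (plus) for Csn2, chr14:20439781-20440080 (minus) for Csn3, chr7:131507023-131507322 (minus) for Lalba and chr8:116850719-116851018 (plus) for Cish.
Csn1s1: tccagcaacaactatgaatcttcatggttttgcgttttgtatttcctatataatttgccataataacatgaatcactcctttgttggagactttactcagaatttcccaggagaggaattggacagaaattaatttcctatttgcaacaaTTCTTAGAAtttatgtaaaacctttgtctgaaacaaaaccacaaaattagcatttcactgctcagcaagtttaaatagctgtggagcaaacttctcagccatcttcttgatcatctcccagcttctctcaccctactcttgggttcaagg
Csn2: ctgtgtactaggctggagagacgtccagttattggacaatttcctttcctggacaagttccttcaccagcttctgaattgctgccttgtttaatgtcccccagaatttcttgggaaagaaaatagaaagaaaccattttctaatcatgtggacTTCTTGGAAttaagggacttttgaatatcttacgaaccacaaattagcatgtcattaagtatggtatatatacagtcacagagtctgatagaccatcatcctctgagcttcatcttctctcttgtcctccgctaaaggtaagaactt
Csn3: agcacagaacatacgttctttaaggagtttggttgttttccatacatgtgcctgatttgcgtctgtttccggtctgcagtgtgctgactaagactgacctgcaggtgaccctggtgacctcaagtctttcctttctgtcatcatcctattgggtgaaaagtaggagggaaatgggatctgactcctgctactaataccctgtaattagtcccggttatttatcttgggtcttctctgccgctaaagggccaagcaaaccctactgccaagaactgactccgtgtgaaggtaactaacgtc
Lalba: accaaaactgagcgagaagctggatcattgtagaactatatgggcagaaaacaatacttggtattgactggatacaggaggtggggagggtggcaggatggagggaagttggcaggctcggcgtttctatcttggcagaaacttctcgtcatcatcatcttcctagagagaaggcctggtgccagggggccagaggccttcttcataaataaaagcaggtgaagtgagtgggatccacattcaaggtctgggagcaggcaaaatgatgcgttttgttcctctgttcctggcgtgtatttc
Cish: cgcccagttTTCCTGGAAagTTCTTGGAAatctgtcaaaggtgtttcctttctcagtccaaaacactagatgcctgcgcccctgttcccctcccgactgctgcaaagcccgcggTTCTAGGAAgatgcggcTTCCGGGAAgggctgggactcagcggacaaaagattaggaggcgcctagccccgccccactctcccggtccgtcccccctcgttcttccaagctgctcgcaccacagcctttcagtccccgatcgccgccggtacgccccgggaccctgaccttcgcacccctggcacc

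The motif was present in 2970 of 33469 promoters of this length (8.87%). Csn1s1 had 1 match that began 100 bases before the start (position -100) and Csn2 had 1 at position -97. Cish had 4, at positions -241, -230, -136 and -119. The windows of Csn3 and Lalba held no match, which says only that these letters are not in these 300 bases. Of the milk gene windows examined but not shown, that of Wap held no match, and those of Csn1s2a and Csn1s2b held 1 each. A match is a description of the sequence and not a measured binding site.

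The 3 caseins differed in how they spread over the tumours. Csn1s1 (alpha-S1 casein) gave a signal of 4025 at the lowest, 4457 at the median and 10310 at the highest in casein-high tumours, against 213, 767 and 1305 in casein-low tumours. The groups did not overlap, and the middle tumours lay between 1014 and 3863. Csn2 (beta-casein) was bright in few tumours: 2301 in X6, 1907 in X10, 686 in X2, 465 in X13 and 86.2 in X4, all casein-high. In the other casein-high tumours it read 47.7 (X8), 42.9 (X18) and 42.8 (X25R), close to the floor, and in casein-low tumours between 30.2 and 50.7. Only these 5 of the 24 tumours had a Csn2 signal over 2 times the floor, and 10 lay at or under the floor. Csn3 (kappa-casein, which stabilises the casein micelle) had 7102, 8559 and 11850 in casein-high tumours (lowest, median, highest), against 260, 2797 and 8371 in casein-low tumours. These ranges overlapped through the casein-low tumour X17 (8371) alone. X11 (6969) lay just below the lowest casein-high tumour, and the other casein-low tumours read 4533 or less. X17 and X11 entered the casein-low group through Csn1s1 (398 and 717) and Csn2 (33.6 and 33.7).

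Over the 24 tumours, the Pearson correlation of the log2 signals was 0.7 between Csn1s1 and Csn3, 0.54 between Csn1s1 and Csn2 and 0.27 between Csn2 and Csn3. These describe arrays that each hold all 3 signals, and the Csn2 values at the floor have no order. The ranking by Csn1s1 alone kept 8 of the 8 casein-high and 7 of the 8 casein-low tumours. The ranking by Csn3 alone kept 6 and 6, and that by Csn2 alone 5 and 5. The normal glands ranged from a casein score of 9.15 (Young) to 12.4 (NewN4), and the tumours from 7.045 (X20) to 12.1 (X10). The casein-low tumours other than X28 and X11 scored below every normal gland. Just inside the threshold, X8 scored 10.23 and X28 scored 9.35. Just outside, X29.2 scored 10.19 and X14 scored 9.56.

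**Figure D1:**
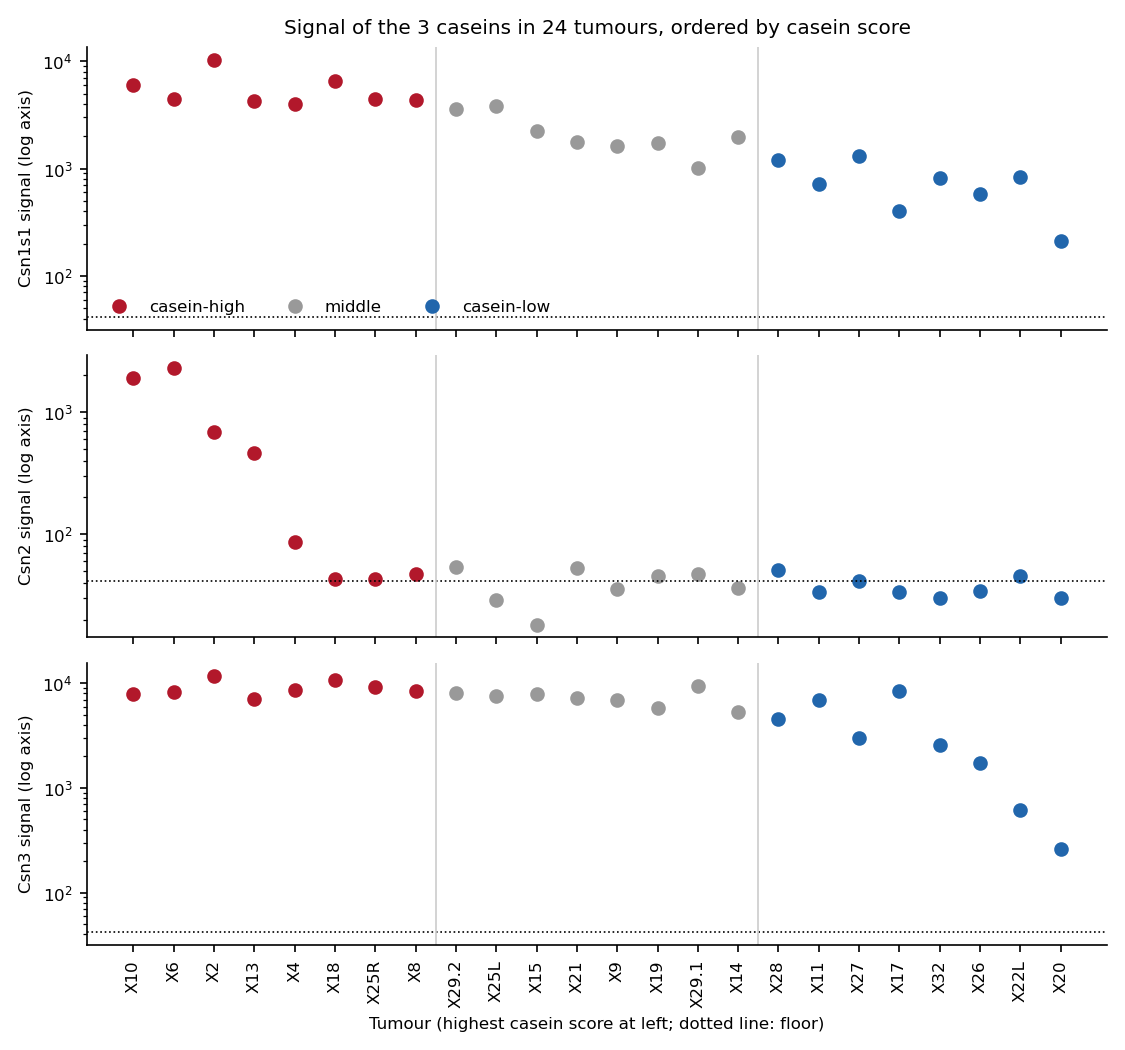
Signal of Csn1s1, Csn2 and Csn3 (log axes) in each of the 24 tumours, ordered by casein score with the highest at left. Points are single arrays, coloured casein-high, middle and casein-low, and the dotted line is the floor of 41.6; Csn2 stands clear of the floor in 5 tumours, while Csn3 in the casein-low tumour X17 (8371) lies within the casein-high range and in X11 (6969) just below it.

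Before the tests, the arrays were compared for quality and for cells of other kinds. For the Actb controls, 3' signal over 5' signal, which is high in degraded RNA, averaged 1.28 ± 0.14 in casein-high and 1.20 ± 0.101 in casein-low tumours (SD, n = 8 each, exact two-sided permutation p = 0.222). That of the Gapdh controls averaged 1.04 ± 0.0985 and 1.01 ± 0.0778 in the same order (exact permutation p = 0.562), and the 10th, 50th and 90th percentiles of signal gave exact permutation p-values of 0.932, 0.831 and 0.709. All 5 had a Benjamini-Hochberg adjusted p of 0.932. The correlation between pairs of the 24 tumours had a median of 0.941 and ranged from 0.799 to 0.975. The casein-low tumour X22L stood apart in epithelial genes: its mean log2 signal over 27 luminal epithelium genes was 6.72, against 9.16 to 10 in the other casein-low tumours and 9.27 to 10.07 in casein-high tumours. Its signal for the luminal keratin Krt18 was 21.5 and for the adhesion protein Epcam 98.5, against at least 1591 and 1659 in the other casein-low tumours. X22L also had the highest mean over the 33 fibroblast and matrix genes, 10.91, while the casein-high tumour with the highest, X10, had 10.61. For the lists and genes that X22L moves most, values without it are given too. In bulk tissue, fewer cells of a type and less RNA per cell cannot be told apart.

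The comparison asked which other genes differed between casein-high and casein-low tumours. At a Benjamini-Hochberg adjusted p under 0.05 in limma, 0 of 10408 genes passed (percent called 0), and 0 of 15863 probe sets. At an unadjusted p under 0.05, 779 genes (7.48%) passed, 422 higher (4.05%) and 357 lower (3.43%) in casein-high tumours. These unadjusted counts were added after the adjusted count was seen. The median log2 difference over all genes was -0.01. For 2 genes (0.0192%) the groups did not overlap. The count of calls depended on which casein ranked the tumours: with Csn3 alone, 66 genes were higher and 6 lower (0.692% of genes called), while with Csn1s1 alone and with Csn2 alone 0 passed. The low group of the Csn2 ranking was drawn from 10 tumours at or under the floor, whose values have no order. At an unadjusted p under 0.05 that ranking gave 1483 genes, against 1135 for Csn3, 652 for Csn1s1 and 779 for the score. Other fits called few genes: 0.0961% with array weights, 0.0384% with all 24 tumours in 3 levels, 0.0384% for a slope over the 24 tumours and 0.00961% without X10.

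Lalba, the regulatory subunit of the lactose-making enzyme, had the largest difference among the milk proteins. Its signal in casein-high tumours was 8373 in X2, 6573 in X18, 5059 in X10, 4629 in X25R, 4572 in X8, 4084 in X4, 3696 in X6 and 1355 in X13. In casein-low tumours it was 2704 in X11, 2520 in X17, 715 in X27, 514 in X28, 429 in X26, 284 in X22L, 245 in X32 and 45.5 in X20. Of the casein-high tumours, 7 exceeded every casein-low tumour, and the overlap came from X13 on one side and X11 and X17 on the other. The log2 difference was 3.14 (SE 0.66, 95% interval 1.75 to 4.52), and the adjusted p in limma was 0.153. Lalba was measured by a probe set that the score did not use, but on the same arrays. Bulk RNA does not show whether the same cells made Lalba and the caseins. The middle tumours had 1421, 2412 and 4232 (lowest, median, highest), and the normal glands 1328, 2593 and 5826. Of 10 lactose synthesis genes tested, Lalba included, 2 had a positive and 8 a negative difference, with a median of -0.08. Lalba was the only 1 higher at an unadjusted p under 0.05, and 0 were lower (4.05% and 3.43% of all genes). Without X22L, 2 were higher and 2 lower, and the median was -0.11.

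Whey acidic protein (Wap), a milk protein that appears late in rodent secretory differentiation, was above the floor in only 3 tumours, X10 (377), X6 (205) and X2 (79.7). These are the 3 tumours with the highest score and the highest Csn2. The deposited value was 1, the lowest in the table, in all 8 casein-low and all 8 middle tumours. The fitted log2 difference of Wap, 0.80 (SE 0.41, adjusted p = 0.733), depends on the floor and is no bound. Glycam1, a small milk mucin, was also bright in X6 (579) and X10 (381), yet X2 had 97.8. Its medians were 132 in casein-high and 87.1 in casein-low tumours (log2 difference 0.82, SE 0.41, adjusted p = 0.725).

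Of the 9 milk proteins tested, 0 passed the adjusted threshold and 3 had an unadjusted p under 0.05, all higher in casein-high tumours: Lalba, Mfge8 (lactadherin) and Cel (a lipase of milk). The background, the share of all genes that were higher at this threshold, was 4.05%. The median difference of the list was 0.71, and 0.61 without X22L, beside -0.01 over all genes in both fits. Mfge8 averaged 2906 ± 1114 in casein-high and 1699 ± 549 in casein-low tumours (SD, n = 8 each), with a log2 difference of 0.78 (SE 0.25). Cel averaged 130 ± 39.1 and 78.0 ± 17.6 in the same order, a log2 difference of 0.71 (SE 0.20). The caseins Csn1s2a and Csn1s2b were not read by a named probe set and are not analysed here.

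In the list of milk fat globule secretion, 10 of 13 members had a positive difference and 3 a negative one. Xdh, the enzyme that with butyrophilin anchors the fat globule to the cell membrane, had 834, 1666 and 2855 in casein-high tumours (lowest, median, highest), against 139, 354 and 1075 in casein-low tumours. The casein-low tumours X17 (1075), X11 (1017) and X28 (857) lay above the lowest casein-high tumour, X10 (834). The log2 difference of Xdh was 1.87 (SE 0.40, 95% interval 1.03 to 2.71, adjusted p = 0.153). Plin2, which coats lipid droplets, had 1421, 2185 and 4491 in casein-high tumours and 694, 876 and 1947 in casein-low tumours. X17 (1947) and X11 (1621) were the 2 casein-low tumours inside the casein-high range of Plin2. Its log2 difference was 1.14 (SE 0.26, 95% interval 0.60 to 1.68, adjusted p = 0.186). Slc34a2, a phosphate carrier of the secretory cell, had a log2 difference of 1.22 (SE 0.38), with 4 of 8 casein-low and 0 of 8 casein-high tumours at the floor. Over the 13 members tested, 6 had an unadjusted p under 0.05 and were higher (Xdh, Plin2, Fabp3, Mfge8, Folr1 and Slc34a2; background 4.05%), 0 were lower, and the median difference was 0.52. Without X22L the median of the list was 0.31 and the count of members stayed at 6. Butyrophilin (Btn1a1) was not read by a named probe set.

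Olah (thioesterase II), which ends chains early and so gives the medium-chain fatty acids of rodent milk, had the largest difference of the fatty acid list. Its signal in casein-high tumours was 4808 in X2, 3595 in X25R, 2899 in X8, 2514 in X13, 2249 in X18, 1623 in X6, 1487 in X4 and 843 in X10. In casein-low tumours it was 1579 in X17, 972 in X11, 604 in X28, 278 in X32, 209 in X27, 75.4 in X26, 51.2 in X22L and 1 in X20, where it was at the floor. X17 and X11 again were the casein-low tumours inside the casein-high range. The log2 difference was 3.25 (SE 0.68, 95% interval 1.81 to 4.69, adjusted p = 0.153). Thrsp (Spot 14), a protein that promotes lipogenesis, averaged 759 ± 818 in casein-high and 160 ± 137 in casein-low tumours (SD, n = 8 each), with a log2 difference of 2.14 (SE 0.50). Its signal was at least 3630 in every normal gland, a tissue rich in fat cells, which also express it. Fads1, a fatty acid desaturase, averaged 979 ± 329 in casein-high and 483 ± 141 in casein-low tumours (SD, n = 8 each), with an SE of 0.26 on the log2 difference.

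For the enzymes that build the fatty acid chain, the intervals included 0. Fasn (fatty acid synthase) differed by 0.35 on the log2 scale (95% interval -0.30 to 1.004), Acaca (acetyl-CoA carboxylase) by -0.06 (-0.38 to 0.25) and Acly (ATP citrate lyase) by -0.06 (-0.43 to 0.31). Cholesterol genes lay on the other side. Sqle (squalene epoxidase) had 59.9, 85.3 and 154 in casein-high tumours, against 136, 165 and 345 in casein-low tumours, a difference of -1.07 (SE 0.21, adjusted p = 0.153). In Sqle, 7 casein-high tumours lay below every casein-low tumour, the exception being X6. Srebf2, the transcription factor of cholesterol synthesis genes, differed by -0.48 (SE 0.14), and Dgat2, which makes triglyceride, by -0.73 (SE 0.21). Of 34 members of the fatty acid and triglyceride list, 5 were higher and 7 lower at an unadjusted p under 0.05 (background 4.05% and 3.43%), 0 passed after adjustment, and the median was -0.08. Without X22L, 4 were higher and 9 lower, and the median was -0.13.

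**Figure D2:**
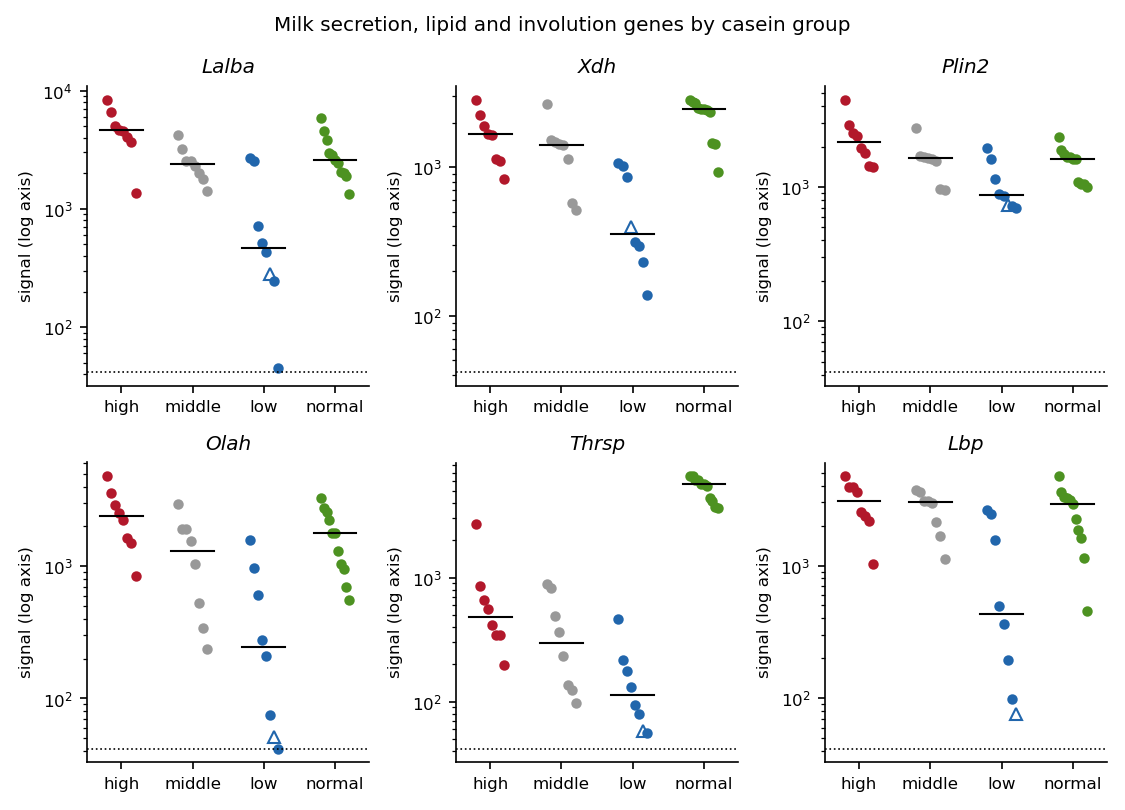
Signal (log axes) of Lalba, Xdh, Plin2, Olah, Thrsp and Lbp in casein-high, middle and casein-low tumours and normal glands, left to right. Each point is 1 array (the open triangle is X22L), the line is the group median and the dotted line the floor, to which lower values were set; in Lalba, Xdh, Plin2 and Olah the brightest casein-low tumours are X11 and X17, which reach into the casein-high range.

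Without X22L the log2 differences were 3.02 for Lalba, 1.86 for Xdh, 1.08 for Plin2, 2.94 for Olah and 1.99 for Thrsp, and their adjusted p-values in limma lay between 0.171 and 0.218.

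The casein-low tumours X11 and X17 and the casein-high tumour X10 often lay where the groups overlapped. Among the 20 genes with the smallest p, a set chosen after their values were seen, 18 were higher in casein-high tumours. X10 was the lowest casein-high tumour in 13 of these 18 genes, while it was the lowest casein-high tumour in 12.5% of all genes. X11 was the highest casein-low tumour in 6 of the 18, and X17 and X28 in 5 each, beside 6.58%, 9.93% and 20.3% of all genes. X10 had the highest casein score, 12.1, and the lowest luminal mean of the casein-high tumours, 9.27. With the fibroblast and matrix mean as covariate, 0 genes passed the adjusted threshold in limma. At an unadjusted p under 0.05, 829 did, against 779 without the covariate. Whether the matrix content of X10 bears on these 18 genes was not tested beyond that fit. Without X10, 1 gene passed the adjusted threshold, Plscr2, with a log2 difference of 1.84 (adjusted p = 0.000759). The adjusted p of Plscr2 over all alternatives ranged from 0.000759 to 0.400, and 5 of 8 casein-low tumours were at its floor.

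Ranked by Csn3 alone, the tumours X17 and X11 left the low group for X14 and X19, and X10 and X13 left the high group for X29.1 and X17. That contrast called Plin2 (1.38, adjusted p = 0.00495), Xdh (2.14, 0.00556), Olah (3.46, 0.0152), Lalba (3.26, 0.0170), Thrsp (2.31, 0.0300) and Slc34a2 (1.51, 0.0412) as higher, each given as its log2 difference and its limma adjusted p. Ranked by Csn1s1 alone, the same 6 genes had log2 differences of 0.99 (Plin2), 1.58 (Xdh), 3.16 (Olah), 2.93 (Lalba), 2.14 (Thrsp) and 1.11 (Slc34a2), and their adjusted p-values in limma lay between 0.372 and 0.612. Ranked by Csn2 alone, they had smaller log2 differences of 0.36 (Plin2), 0.98 (Xdh), 1.79 (Olah), 1.66 (Lalba), 0.99 (Thrsp) and 0.45 (Slc34a2), with adjusted p-values in limma between 0.341 and 0.709. Values under the floor chose the low group of that ranking. Of the 20 genes with the smallest p in the comparison by score, 14 were among the 72 called by Csn3 alone. These contrasts share most of their tumours and are no independent support of each other.

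The prolactin pathway, which drives casein genes, had intervals that included 0 for its receptor, kinase and STAT5 genes. Prlr, the prolactin receptor, had 1283, 1946 and 2908 in casein-high tumours (lowest, median, highest), against 82.8, 2987 and 4159 in casein-low tumours. X22L gave the low value, and 4 casein-low tumours exceeded every casein-high tumour: X26 (4159), X27 (3783), X28 (3335) and X17 (3176). The log2 difference of Prlr was 0.06 (SE 0.61, 95% interval -1.23 to 1.36, adjusted p = 1), and without X22L it was -0.57 (adjusted p = 0.486). Other, dimmer probe sets of Prlr differed by -0.205 (SE 0.592) and -0.314 (SE 0.177) with X22L kept. The middle tumours had a median of 2805 and the normal glands 1098.

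Jak2 differed by -0.14 (95% interval -0.77 to 0.48), Stat5a by 0.18 (-0.30 to 0.66) and Stat5b by 0.11 (-0.33 to 0.56) on the log2 scale. The intervals bound a difference in the mRNA of Stat5a at below 2-fold in either direction, and they say nothing of phosphorylation. Cish, a STAT5 target that inhibits the receptor, had 79.2, 137 and 239 in casein-high tumours, against 44.0, 87.0 and 199 in casein-low tumours. Its 4 motif matches are shown above. The difference of Cish was 0.63 (95% interval 0.04 to 1.21, adjusted p = 0.641), and ranked by Csn3 alone it was 1.01 (adjusted p = 0.0398). Its adjusted p ranged from 0.0398 to 0.929 over all alternatives.

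Of 26 members of the prolactin pathway tested, 3 were higher at an unadjusted p under 0.05 (Cish, Cebpb and Id2) and 1 was lower (Cav1). The background was 4.05% higher and 3.43% lower, and the median difference of the list was -0.003. Without X22L, 2 were higher and 3 lower, and the median was -0.02. Cebpb and Id2, transcription regulators needed for alveolar development in mice, differed by 0.31 (SE 0.12) and 0.70 (SE 0.25). Cav1 (caveolin), which restrains Jak2 in mouse mammary cells and is abundant in fat, vessels and myoepithelium, differed by -1.03 (SE 0.39). The transcription factor Elf5 was not read by a named probe set. The steroid receptors Esr1 and Pgr differed by -0.31 (95% interval -0.85 to 0.24) and -0.06 (-0.79 to 0.66), and Esr1 was at the floor in 2 tumours of each group.

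**Figure D3:**
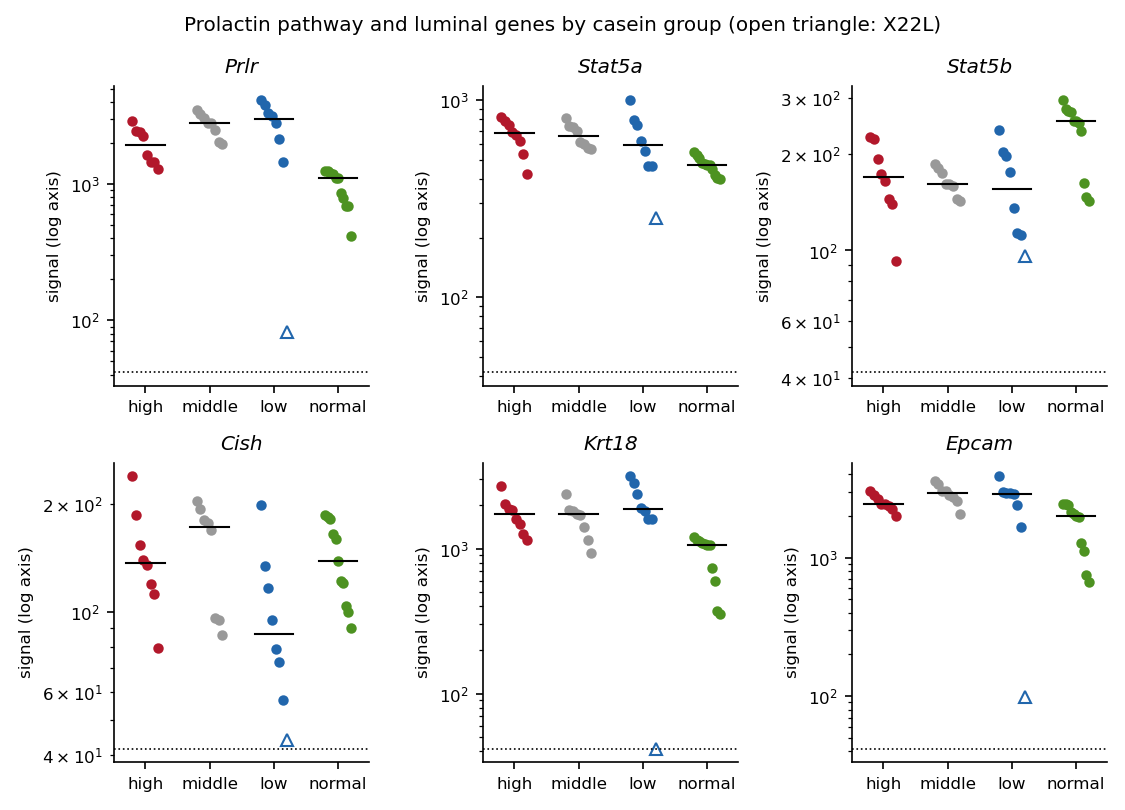
Signal (log axes) of Prlr, Stat5a, Stat5b, Cish, Krt18 and Epcam in casein-high, middle and casein-low tumours and normal glands, left to right, with 1 point per array and the group median as a line. The open triangle is X22L, the lowest casein-low tumour in Prlr (82.8), Krt18 and Epcam; the other casein-low tumours reach or exceed the Prlr level of casein-high tumours.

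**Figure D4:**
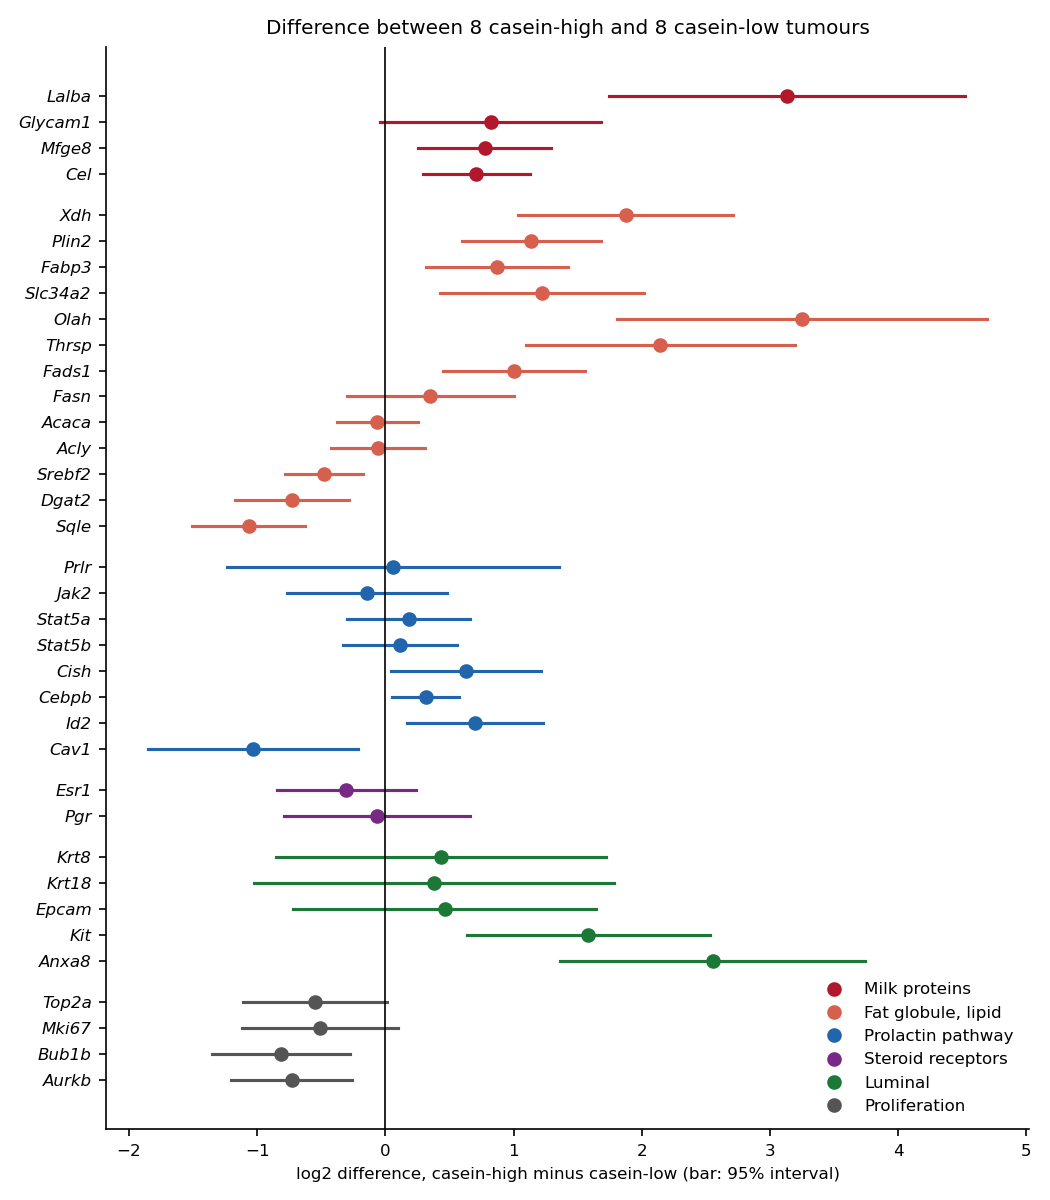
Log2 difference of signal, casein-high minus casein-low tumours (n = 8 each), with its 95% interval, for named genes grouped by role. Lalba (3.14), Olah (3.25) and Xdh (1.87) lie to the right, Prlr, Jak2, Stat5a and Stat5b straddle 0, and Sqle (-1.07) lies to the left; none passed the adjusted threshold.

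The difference of the luminal keratins had intervals that included 0 and depended on X22L. Krt8 had a log2 difference of 0.43 (95% interval -0.85 to 1.72) with X22L and -0.21 without it, and Krt18 0.38 (-1.02 to 1.78) and -0.33. Anxa8 (annexin A8) had 355, 1072 and 2162 in casein-high tumours, against 28.4, 132 and 660 in casein-low tumours, and 7 casein-high tumours exceeded every casein-low tumour. Its difference was 2.55 (SE 0.56, adjusted p = 0.178). Kit, a receptor of luminal progenitor cells and of mast cells, had a difference of 1.58 (SE 0.45) and 1.45 without X22L. It was at the floor in 3 of 8 casein-low and 0 of 8 casein-high tumours. Of the 27 luminal members 5 were higher at an unadjusted p under 0.05 and 0 lower (background 4.05% and 3.43%). Their median difference was 0.42. Without X22L, 5 were higher and 2 lower, and the median was -0.03. Muc4, a membrane mucin of rat mammary epithelium and milk, had 215, 594 and 1314 in casein-high tumours, against 30.5, 86.5 and 397 in casein-low tumours (log2 difference 2.37, SE 0.48, adjusted p = 0.153).

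In the list of involution and acute phase genes, 18 of 22 members had a positive difference. Lbp, which binds bacterial lipopolysaccharide and is made by mouse mammary tissue at weaning, had 1031, 3065 and 4700 in casein-high tumours, against 75.7, 432 and 2599 in casein-low tumours. Its difference was 2.54 (SE 0.68, 95% interval 1.10 to 3.99, adjusted p = 0.242). Tgfb3, a cytokine of early involution in the mouse, differed by 1.29 (SE 0.34), Igfbp5, which binds insulin-like growth factors, by 0.94 (SE 0.25) and the lipopolysaccharide receptor Cd14 by 1.29 (SE 0.44). Without X22L the differences were 2.17 for Lbp and 0.89 for Cd14. Of 22 members, 6 were higher at an unadjusted p under 0.05 (background 4.05%), 0 were lower (background 3.43%) and the median was 0.22, the same without X22L to 2 decimals, when 7 were higher.

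Transport and folding genes had medians near that of all genes. The taurine carrier Slc6a6 differed by 1.38 (SE 0.40) and the zinc exporter Slc30a4 by 0.43 (SE 0.20). Of 29 transport members, 4 were higher and 0 lower at an unadjusted p under 0.05 (background 4.05% and 3.43%). Without X22L, 3 were higher and 4 lower. Of 41 genes of the endoplasmic reticulum, 2 were higher and 1 lower, shares near that background, with a median of -0.005. Without X22L, 3 were higher and 2 lower (median 0.04). Among them Sec11c, a subunit of the signal peptidase, differed by 0.70 (SE 0.18), and the chaperone Hspa5 by 0.01 (95% interval -0.23 to 0.24).

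Proliferation genes lay on the lower side. Of 27 members, 26 had a negative difference, 10 were lower at an unadjusted p under 0.05 (background 3.43%), 0 passed after adjustment and the median was -0.37. Without X22L, 6 were lower and the median was -0.28. The mitotic checkpoint kinase Bub1b averaged 65.8 ± 26.1 in casein-high and 123 ± 54.6 in casein-low tumours (SD, n = 8 each), and Aurkb averaged 181 ± 59.7 and 303 ± 104 in the same order. Their differences were -0.81 (SE 0.26) and -0.73 (SE 0.22). Mki67 and Top2a differed by -0.51 (SE 0.29) and -0.55 (SE 0.27). The mean log2 signal of the list had a median of 7.81 (7.10 to 8.14) in casein-high tumours and 8.14 (7.72 to 8.54) in casein-low tumours, ranges that overlap.

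Markers of other cells were compared because bulk tumour RNA holds them too. Fibroblast and matrix genes had a median difference of -0.45 over 33 members, with 0 at an unadjusted p under 0.05, and -0.11 without X22L. Their mean log2 signal ranged from 6.60 to 10.6 in casein-high and from 6.89 to 10.9 in casein-low tumours. Col1a1 differed by -0.52 (95% interval -2.67 to 1.63). Of 22 basal and myoepithelial members 0 were higher and 2 lower at an unadjusted p under 0.05 (background 4.05% and 3.43%), with a median of -0.21. Without X22L, 5 were lower and the median was -0.51. In the mast cell and granulocyte list (15 tested), 4 were lower and 2 higher at that threshold (background 3.43% and 4.05%). Among the lower were Cpa3 (-1.31, SE 0.51) and Tpsab1 (-1.43, SE 0.62), proteases of mast cell granules, and the higher were Mcpt9 (0.78, SE 0.18) and Kit. Tpsab1 was at the floor in 6 of 8 casein-high and 2 of 8 casein-low tumours, and Mcpt9 in 3 of 8 casein-low tumours. Without X22L, 5 were lower and 2 higher. Of 17 macrophage genes 1, Cd14, was higher and 0 lower, with a median of -0.26. Without X22L, whose macrophage mean log2 of 9.77 was the highest of the casein-low tumours, 2 were higher and the median was -0.003. Of 19 T and NK cell genes 0 reached an unadjusted p under 0.05. The part of these other cells in the differences of the milk genes was not tested beyond the fit with the fibroblast and matrix mean. In that fit 0 genes passed the adjusted threshold. The luminal mean is no measure of these other cells. With it as covariate, Lalba differed by 2.94, Olah by 2.67, Xdh by 1.75 and Plin2 by 0.98.

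**Figure D5:**
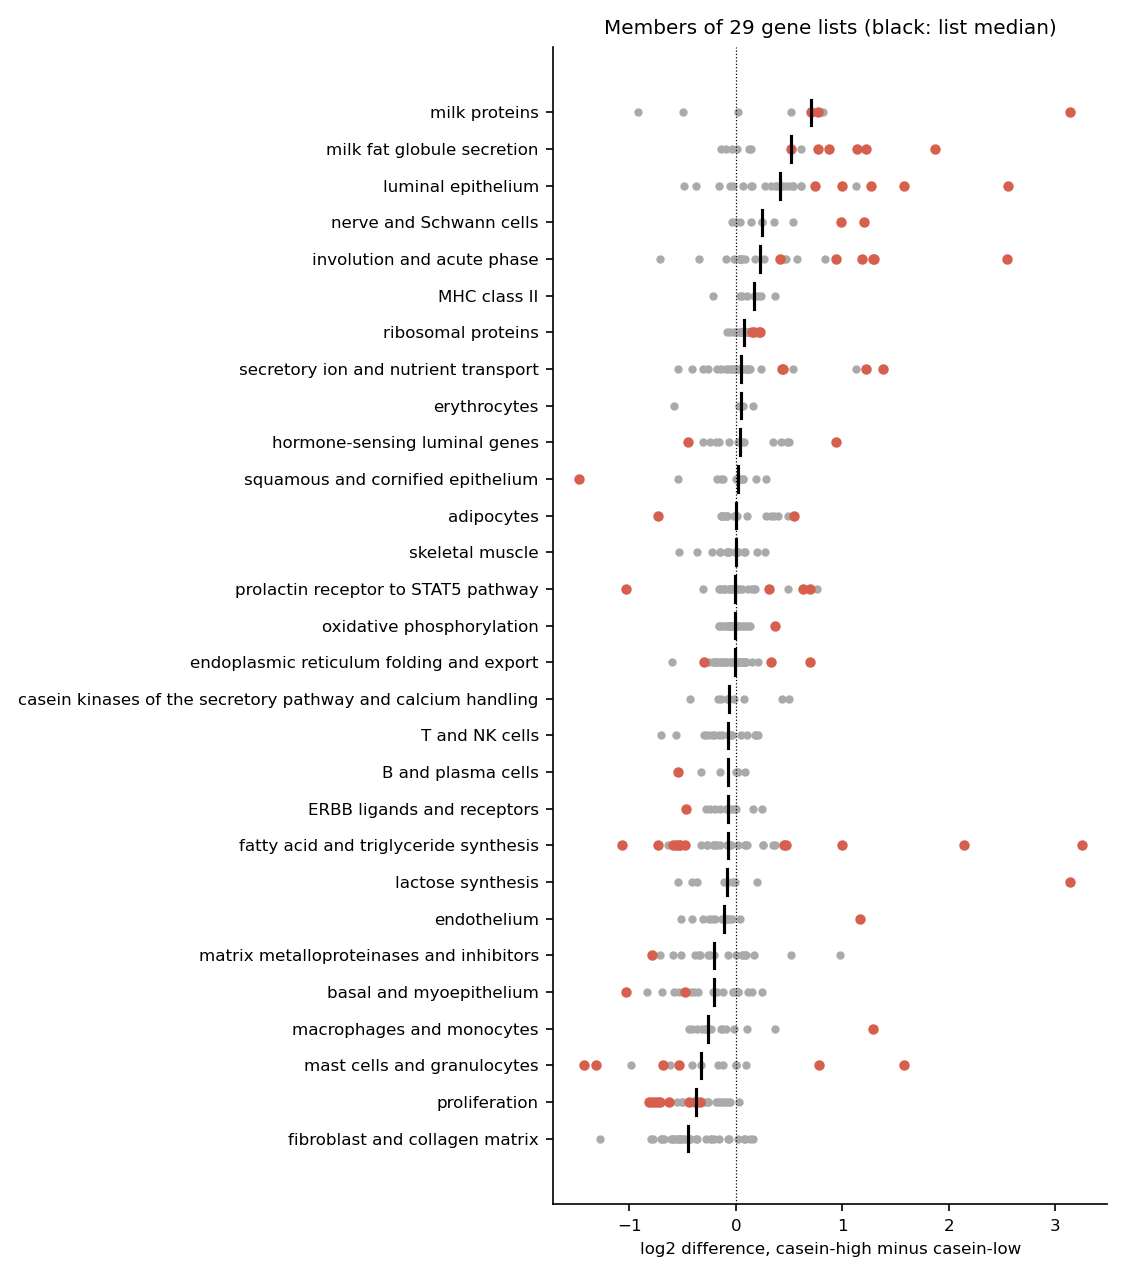
Log2 difference, casein-high minus casein-low tumours, of each tested member of 29 gene lists, 1 list per row, ordered by the list median (black bar). Red points have an unadjusted p under 0.05 and none passed after adjustment; milk proteins (median 0.71) and milk fat globule secretion (0.52) stand at the top, and proliferation (-0.37) and fibroblast matrix (-0.45) at the bottom.

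Paqr6 and Car8 were the 2 genes whose groups did not overlap, and they were named after their values were seen. Paqr6, a membrane progestin receptor, had 208, 242 and 440 in casein-high tumours (lowest, median, highest), against 129, 163 and 184 in casein-low tumours. Its difference was 0.81 (SE 0.15, adjusted p = 0.128), and the normal glands lay at 222 to 465. Car8, a carbonic anhydrase-related protein, had 90.2, 117 and 392, against 41.7, 66.9 and 83.8, with a difference of 0.98 (SE 0.25, adjusted p = 0.224). The smallest p of any gene was that of Plscr2, a phospholipid scramblase family member, with a difference of 1.62 (SE 0.27, 95% interval 1.05 to 2.19, adjusted p = 0.0747). For Plscr2, 5 of 8 casein-low and 0 of 8 casein-high tumours were at the floor. Its difference, SE and p therefore depend on the floor. Among the genes on the lower side, Cd44, a hyaluronan receptor, had 57.3, 104 and 199, against 127, 230 and 360 (difference -1.13, SE 0.25, adjusted p = 0.175).

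The genes most like the caseins were taken as the 10 with the highest Pearson correlation with the casein score over the 24 tumours. They were Lalba (0.789), Sec11c (0.780), Olah (0.743), Hnmt (0.733), Thrsp (0.716), Paqr6 (0.712), Muc4 (0.705), Ngef (0.703), Met (0.703) and Prkaa2 (0.701). The points share the arrays from which the score was taken, and no test is attached. The most negative correlation was that of the phosphatase Ptpn13 (-0.762), a gene outside the naming rule.

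The 8 middle tumours took no part in the contrast, and their scores spanned only 9.56 to 10.19. Within them, 0 of 10408 genes had a slope on the casein score at an adjusted p under 0.05 (percent called 0), and 536 had an unadjusted p under 0.05. Per unit of score the log2 slope was 1.60 (SE 0.49) for Plin2, 2.32 (SE 0.83) for Xdh, 3.89 (SE 1.41) for Olah, 0.88 (SE 0.67) for Lalba and -1.18 (SE 0.21) for Prlr. The adjusted p in limma was 0.907 for Plin2, Xdh and Olah, 0.918 for Lalba and 0.673 for Prlr. Of the 20 genes with the smallest p in the contrast, 19 had a slope of the same sign in the middle tumours. Of the 779 genes with an unadjusted p under 0.05, 521 did (66.9%), as did 5518 of the 10239 genes off the floor (53.9%). Genes read on the same 8 arrays can move together, so these counts are not separate observations, and no test is attached. Some of the 19 slopes were small beside their SE, such as Cd44 (-0.02, SE 0.95) and Tc2n (0.16, SE 0.81).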

How the data were processed

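Arrays of 24 tumours and 11 normal glands were grouped by their labels. The deposited intensity of each probe set is on a linear scale with a lowest value of 1, which 0.649% of values hold; no label or header names their software or scaling. The 57 control probe sets were left out. Values under the 10th percentile, 41.6, were raised to it before taking log2. Probe sets were named from the platform annotation, with 12748 identifiers matched to RefSeq (GRCr8); 12783 carried 1 symbol, 312 several and 2771 none. Each of 10411 genes was represented by its brightest probe set on average. limma 3.58.1 under R 4.3.3 compared the groups (lmFit and a robust eBayes with an intensity trend), adjusted over 15863 probe sets; intervals are at 95%. The procedure was tested on simulated data. Array quality was compared by exact permutation (scipy 1.17.1), and figures were drawn with matplotlib 3.10.9. The number of arrays limits the precision.

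The tumours and the 29 gene lists (528 of 662 symbols measured) were chosen with earlier results of these data known. Named genes were to be the 12 largest rises and falls among called genes, of which there were none, up to 4 members of each list, a fixed panel and the 10 genes most like the casein score. Other genes were named after their values were seen. Alternatives covered scaling, floor, dim probe sets, spread model, group size, the casein that ranks, title numbers, covariates, probe sets and leaving out tumours.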

Additional observations from a re-analysis of the deposited data

Results flagged for a closer look

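In a group of 8 tumours, a value was looked at again when its gap to the nearest other, over the group's range of log2 values, exceeded Dixon's 95% critical value. Of 130 groups looked at, 17 held such a value, and chance alone gives about 1 in 20. Of the 10 in casein-low tumours, 8 were X22L and were low values. X22L had a luminal epithelium mean log2 of 6.72 (others 9.16 to 10), a Krt8 signal of 75.7 (others 1891 to 4275), Krt18 of 21.5, Epcam of 98.5, Cdh1 of 38.1 (others 1126 to 2114), Prlr of 82.8 (others 1456 to 4159), Cd14 of 95.7 (others 437 to 1351) and Fads1 of 196 (others 423 to 688). X28 was high in Fasn at 3129 (others 636 to 1344) and in Csn2 at 50.7, which is near the floor.

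Among casein-high tumours, X13 had a Lalba signal of 1355 (others 3696 to 8373) although its Csn2 was 465. X10 had a Plscr2 signal of 55.1 (others 172 to 257) and a Tpsab1 signal of 381 (others 1 to 69.2). X2 had an Igfbp5 signal of 1739 (others 3311 to 4500) and a Car8 signal of 392 (others 90.2 to 130). X4 had a Fads1 signal of 360 (others 881 to 1578), and X8 a Slc30a4 signal of 722 (others 262 to 382). The cause of these values was not tested.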

How the results depend on the processing

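The comparison was repeated under 38 alternatives, 36 planned and 2 (without X20 and X22L; ranked by Csn1s1 and Csn3) chosen after the data were seen. No gene passed the adjusted threshold, as in the comparison by score, except under these settings. Array weights called 9 higher and 1 lower, all 24 tumours in 3 levels called 4 higher and 0 lower, the slope over 24 tumours 3 higher and 1 lower, and ranking by Csn3 alone 66 higher and 6 lower. Leaving out 1 tumour at a time called 0 to 1 genes, the 1 being Plscr2 without X10. The cause was not tested. Over 58 named genes, 44 kept their sign under every alternative, and 0 of the 25 gene and setting pairs past the threshold had the sign turned. In the comparison by score, Prlr, Krt8, Krt18, Epcam and Cdh1 were negative without X22L and positive with it, below the threshold both ways. With X22L kept and the luminal mean as covariate, these 5 genes were negative as well. That mean was 6.72 in X22L and at least 9.16 in the other compared tumours. The covariate therefore largely marks X22L, and this fit is no separate support for the sign. Their log2 differences were then -0.667 for Prlr, -0.369 for Krt8, -0.502 for Krt18, -0.299 for Epcam and -0.219 for Cdh1. Prlr kept its sign in 25 of the 38 alternatives. The slope within the middle tumours called 0 genes with a floor at the 5th percentile and with quantile normalization as well. No paired analysis was possible because no 2 of the 16 tumours share a title number, so the block left every value as it was. Genes near the floor, such as Wap and Csn2, have only a bound where they are dim.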

Other observations

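Several genes outside the lists differed between casein-high and casein-low tumours at an unadjusted p, and all were picked after their values were seen. Nr3c2, the mineralocorticoid receptor, averaged 136 ± 32.2 in casein-high and 80.8 ± 15.2 in casein-low tumours (SD, n = 8 each), a log2 difference of 0.73 (SE 0.15, adjusted p in limma 0.153). Ptpn13, a tyrosine phosphatase, averaged 310 ± 57.2 and 475 ± 101 in the same order, a difference of -0.61 (SE 0.14, adjusted p in limma 0.186), and it had 192 at the median of normal glands.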
